A study of Mus musculus with 2 samples.

Results

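The genes described here are the spliceosome, hnRNP and RNA-binding motif genes measured in nuclei of mouse brown adipose tissue (BAT). They were taken by symbol: every gene whose name begins with Hnrnp, Snrp, Sf3a, Sf3b, Prpf, Rbm, U2af, Celf or Mbnl, together with the kinases Clk1 to Clk4, leaving out pseudogenes and predicted Gm genes and requiring at least 50 UMIs (unique molecular identifiers, 1 per captured RNA molecule) over both libraries. The symbol rule matched 118 of 32285 genes and 111 passed the minimum. The members nearest to the minimum were Rbm3os with 70 UMIs and Rbm44 with 73, and the 7 genes left out ran up to Celf6 with 36 and Rbm46os with 35.

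The spliceosome removes introns in steps. The U1 particle reads the start of an intron, the U2AF proteins and the U2 particle with its Sf3a and Sf3b proteins settle on its far end, and the PRPF proteins bring in the remaining particles and drive the reaction. The Sm proteins (Snrpb, Snrpd1 to Snrpd3, Snrpe, Snrpf, Snrpg) form the ring around the small nuclear RNAs. The hnRNP, RBM, CELF and MBNL proteins bind the transcript itself and shift which exons are kept, and the CLK kinases phosphorylate SR proteins, the family to which SRSF1 belongs.

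Interscapular BAT was taken from 8-week-old mice, and its nuclei were sequenced as 1 library per genotype. The KO library came from male mice with Srsf1 deleted by a Cre transgene under the Adipoq promoter, which is active in mature adipocytes. The WT library came from littermates with floxed Srsf1 alleles and no Cre, so both groups carry the floxed alleles. How many mice made up each library is not given in the sources used here. With 1 library per genotype there is no replicate error and no test: the intervals given are exact 95% intervals for counting error only, and a member is called past the fold when its level differed at least 2-fold.

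The libraries held 24341 barcodes and 173193022 UMIs, 24149 barcodes were kept, and 52 barcode sequences occurred in both. Nuclei were put in a class when the UMIs of that class's markers led those of all others, which left 54.7% of WT and 36.1% of KO nuclei without a class. The classes compared were adipocytes (1713 WT and 719 KO nuclei), adipose stem and progenitor cells (ASPC, 276 and 1550), endothelial cells (2571 and 1199), immune cells (454 and 3386) and mural cells (519 and 284). Schwann-like (143 and 84) and skeletal muscle-like nuclei (106 and 44) were too few to be compared. In adipocytes, 609 WT and 274 KO nuclei were called with a lead of 2 to 2.5 times over the next class, and 981 and 434 more led by 1.5 to 2 times and were left out. Each class had the highest level of its own marker list in both libraries, which follows from the call by the same markers and is no check of it. Median depth in adipocyte nuclei was 7372 UMIs in WT and 6634 in KO. The libraries differed in mitochondrial RNA, whose median share in adipocyte nuclei was 0.768% in WT and 0.0443% in KO, and whose part in the results below was not tested. Srsf1 itself stood at 192 CPM (counts per 1000000 UMIs of the class) in WT and 55.1 CPM in KO adipocyte nuclei, a 3.49-fold lower level, and was lower in KO in the other 4 classes as well, by 0.55 to 0.89 on the log2 scale.

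For the members past the fold in adipocyte nuclei, the sequence before the transcription start is shown where 100 bases free of any annotated exon lie within 250 bases of the start. This held for 4 of the 9 such members that had no fewer than 20 UMIs in either library and 100 in total. Rbm20 and U2af1l4, also past the fold, had fewer than 20 UMIs in KO and were not searched. All sequences are from RefSeq on GRCm38.p6, the build of the count tables (mm10), written 5′ to 3′ on the gene's strand, with a match to 1 of 6 searched motifs in capitals on either strand. Snrpf, chr10:93589771-93589870 on the minus strand, and Hnrnpa2b1, chr6:51469895-51469994 on the minus strand, each hold a CCAAT box (letters CCAAT). Snrpa1, chr7:66060199-66060298 on the plus strand, holds a GC box (GGGCGG). This window lies before the RefSeq start but inside the GENCODE span of Snrpa1, which begins at 66059003. Rbms3, chr9:117629914-117630013 on the minus strand, holds none of the 6. The rest of the search covered the TATA box (TATAAA), the E-box with letters CACGTG, the cyclic AMP response element (TGACGTCA) and the ETS site, spelled CCGGAAG, and no motif contains another. The last base lies 112 bases before the start in Snrpf and 37 in Snrpa1, and next to the start in the other two.
Snrpf: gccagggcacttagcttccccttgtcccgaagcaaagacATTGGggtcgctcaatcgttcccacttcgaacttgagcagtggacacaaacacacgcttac
Snrpa1: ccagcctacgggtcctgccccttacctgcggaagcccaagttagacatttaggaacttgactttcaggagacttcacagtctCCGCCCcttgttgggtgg
Hnrnpa2b1: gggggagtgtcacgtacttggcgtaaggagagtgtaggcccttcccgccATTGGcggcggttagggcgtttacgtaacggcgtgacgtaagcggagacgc
Rbms3: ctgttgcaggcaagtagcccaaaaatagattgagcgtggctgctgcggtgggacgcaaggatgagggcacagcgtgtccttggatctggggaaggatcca
In the 100 bases next to the start, CCAAT was present in 19.6% of 27025 promoters and in 35 of the 92 member promoters on file, and GGGCGG in 25.2% and in 34 of 92. A match describes these letters only, and the 3 lower members printed hold 1 match each.

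In adipocyte nuclei most members stayed close to their WT level, and a few stood far from it. Of the 111 members, 101 had at least 50 UMIs over both libraries in this class. Of these, 4 were at least 2-fold higher in KO, against 17.5% of all 12317 genes measured, and 7 were at least 2-fold lower, against 16.9% of all genes. The members' ratios lay within 0.5 of 0 on the log2 scale for 63 of 101 (62.4%), compared with 41.3% of all genes. Their median log2 ratio was -0.18, with 66 below 0 and 35 above, while the median of all genes was 0.03. Members past the fold were thus a smaller share than genes at large in both directions. With a minimum of 200 UMIs the counts were 3 higher and 5 lower of 90 members, against 14.1% and 14.2% of all genes. With nuclei classed by clustering instead, 8 of 105 members were higher, against 24.4% of all genes, and 7 lower, against 15.98%, and the medians were -0.016 for members and 0.18 for all genes. Together the members took 1.81% of the UMIs of WT adipocyte nuclei and 1.65% of those of KO adipocyte nuclei.

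**Figure D1:**
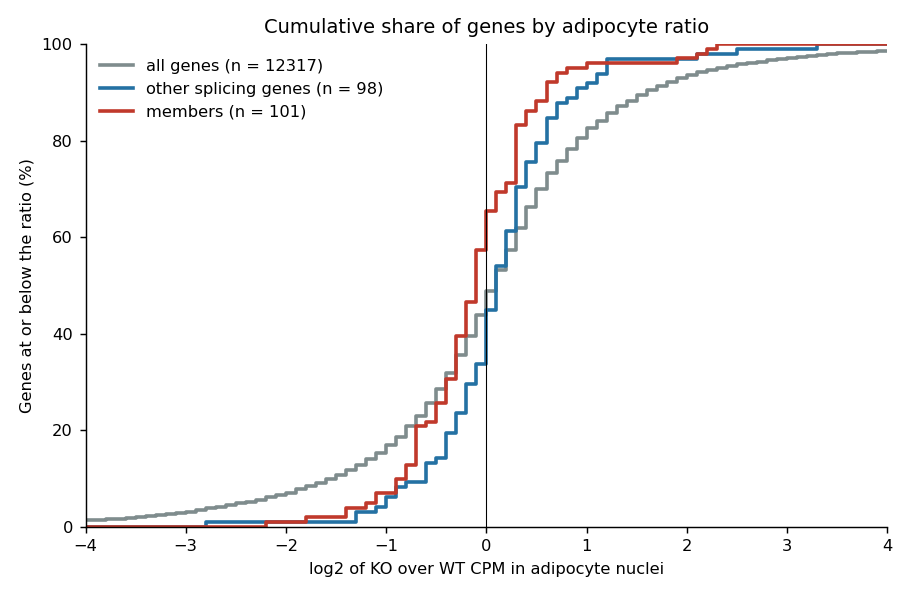
Cumulative share of genes (y axis, percent) at or below each log2 ratio of KO over WT CPM in adipocyte nuclei (x axis), for all genes, the members and a list of other splicing genes. The members' curve is steeper than that of all genes and reaches 65.3% at a ratio of 0, where all genes reach 48.8%.

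The fall in that share was the net of members that went down and members that went up. Summed over members, the level was 18107 CPM in WT and 16515 CPM in KO, a net difference of -1592 CPM. Mbnl1, a repressor and activator of alternative exons, differed by -742 CPM. Since other members fell and rose, this value is not a share of the net difference. Celf2, Mbnl2 and Mbnl1 held 36.0% of the members' UMIs in WT adipocyte nuclei and 32.8% in KO. Without these 3 genes the members took 1.16% and 1.11% of the UMIs.

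Among the core particle proteins, the lowest ratios belonged to 1 Sm protein and 3 proteins of the U2 particle. Snrpf, part of the Sm ring, was counted 404 times in the WT and 29 times in the KO adipocyte class, which is 25.4 against 5.22 CPM and a log2 ratio of -2.28 (interval -2.88 to -1.74). Sf3a2 stood at 11.5 and 4.32 CPM, a ratio of -1.41 (-2.09 to -0.80) from 183 and 24 UMIs. Snrpa1, which holds the U2 RNA, stood at 22.9 and 9.37 CPM, a ratio of -1.29 (-1.74 to -0.87). With nuclei classed by clustering Sf3a2 stood at -0.88 and Snrpa1 at -0.92, neither past the fold, and in nuclei with 2000 to 10000 UMIs Sf3a2 stood at -0.86. Sf3b2 rested on many more molecules than these 3. With 2391 WT and 366 KO UMIs its level was 151 against 65.9 CPM, 2.28-fold lower.

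Most other members of the same particles lay closer to their WT level. Of the 7 Sm proteins measured, Snrpf was the only one past the fold (14.3% lower, against 16.9% of all genes). Snrpd2 followed with 67 and 12 UMIs and a ratio of -0.97, and Snrpd1 stood at the other end with 14.1 CPM in WT and 23.4 in KO (ratio 0.73, interval 0.41 to 1.05). Snrpb, Snrpe, Snrpd3 and Snrpg had ratios between -0.04 and 0.22. Across the alternative settings Snrpe ranged from -0.0092 to 1.21 and Snrpd1 from 0.61 to 1.31, each past 2-fold higher in some setting. Of the 13 U1 and U2 proteins, 3 were past the fold, all lower (23.1%, against 16.9% of all genes), and the group's median was -0.25. Sf3b1, the large subunit that contacts the branch site, was 1.49-fold lower at 225 and 151 CPM, and Sf3a1 stood at 35.6 and 21.3 CPM. Sf3b3 was slightly higher, at 57.3 CPM in WT and 70.4 in KO. The annotation places other genes on the opposite strand of Snrpf, Sf3a2 and Sf3b2.

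The U2AF subunits that recognise the end of the intron differed little between the libraries. U2af1 stood at 48.9 CPM in WT and 45.7 in KO, and U2af2 at 60.6 and 64.5, with both intervals including 0. Their relative U2af1l4, named after its values were seen, had 103 and 13 UMIs and a ratio of -1.47. Of the 13 PRPF genes, none was past the fold in either direction, against 17.5% (higher) and 16.9% (lower) of all genes. Below 0 lay 10 of the 13, against 6009 of all 12317 genes. Prpf8, the protein at the catalytic centre, stood at 44.3 and 39.6 CPM, a ratio of -0.16 (-0.39 to 0.06). Prpf19, a ubiquitin ligase of the spliceosome, was the lowest of the group at 17.8 and 9.73 CPM (ratio -0.87, interval -1.32 to -0.44).

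The 4 CLK kinases were all lower in KO by similar amounts, and none reached 2-fold. Their levels went from 322 to 258 CPM for Clk1, from 61.0 to 47.2 for Clk2, from 45.0 to 30.6 for Clk3 and from 209 to 158 for Clk4. Each of the 4 intervals lay below 0, with ratios from -0.56 (Clk3) to -0.32 (Clk1). Intervals below 0 were also found for 4204 of all 12317 genes measured. The 4 kinases had ratios below 0 in ASPC, endothelial and mural nuclei as well, and 3 of them in immune nuclei.

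**Figure D2:**
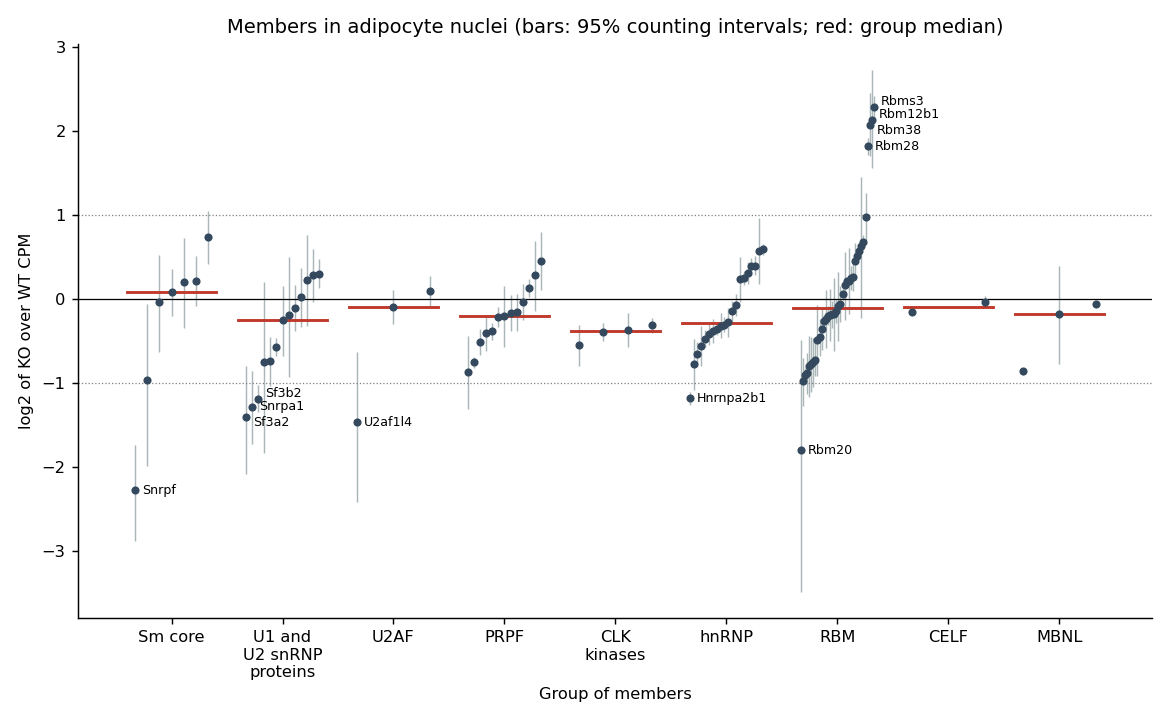
Log2 ratio of KO over WT CPM in adipocyte nuclei (y axis) for the 101 members with at least 50 UMIs, by group (x axis). Points are members with exact 95% counting intervals, red lines are group medians, dotted lines mark 2-fold, and names mark the 11 members past it, of which the 4 higher ones are all RBM genes.

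Of the 20 hnRNP genes, 1 was past the fold, on the lower side (5.0%, against 16.9% of all genes). Hnrnpa2b1, a reader of RNA sequence and of methylated RNA, was 2.28-fold lower, at 572 CPM from 9074 WT UMIs against 251 CPM from 1393 KO UMIs (log2 interval -1.27 to -1.11). Hnrnpa2b1 was detected in 96.3% of the WT adipocyte nuclei against 73.7% of the KO ones, and in 44.8% against 23.3% after each nucleus was thinned to 1000 UMIs, which left out 11 and 1 nuclei. Hnrnpa1, its close relative, stood at 47.0 and 31.9 CPM (ratio -0.56).

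The hnRNP genes as a group, Hnrnpa2b1 and Hnrnpa1 included, spread around a median of -0.30. Hnrnpu, which also binds chromatin, went from 566 to 440 CPM, and Hnrnpc, which keeps cryptic exons silent, from 303 to 245. Hnrnpk differed little, at 120 CPM in WT and 113 in KO (interval -0.21 to 0.06). Hnrnpm was the highest of the family, at 303 CPM in WT and 454 in KO, a ratio of 0.59 (0.52 to 0.66). Hnrnpa0 stood at 10.2 and 15.1 CPM. Hnrnpm shares part of its locus on the same strand with March2, and reads there could belong to either gene.

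The RBM genes spread most widely and held all 4 members that were at least 2-fold higher in KO. That was 4 of the 36 RBM genes measured (11.1%), against 17.5% of all genes. Rbms3, a binder of AU-rich sequences, had 778 WT and 1322 KO UMIs in adipocyte nuclei although the KO class held fewer nuclei. Its level went from 49.0 to 238 CPM, 4.86-fold higher, with an interval of 2.15 to 2.41 on the log2 scale. Rbm28, a nucleolar protein that joins spliceosomal RNAs, went from 1458 to 1797 UMIs, or 91.8 to 324 CPM, 3.52-fold higher (1.72 to 1.92).

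Rbm28 and Rbms3 were also found in more nuclei. Rbm28 was detected in 49.7% of the WT adipocyte nuclei against 80.9% of the KO ones, and at 1000 UMIs per nucleus in 8.70% and 29.8%, while in endothelial nuclei the thinned shares were 5.09% and 6.81% at median depths of 2305 and 2136 UMIs. For Rbms3 the thinned shares in adipocyte nuclei were 3.88% and 15.7%, and in endothelial nuclei 8.78% and 12.1%. The WT share of Rbms3 in adipocyte nuclei was thus no higher than in endothelial nuclei, and the KO share was higher.

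The remaining members past the fold were rarer. Rbm38, which binds AU- and GU-rich messages and is known as a target of p53, had 104 and 153 UMIs, or 6.55 and 27.6 CPM (ratio 2.07, interval 1.70 to 2.45). Rbm12b1 had 43 and 66 UMIs (ratio 2.13, interval 1.56 to 2.72) and its neighbouring copy Rbm12b2 had 259 and 178 (ratio 0.97, interval 0.69 to 1.26). Reads of these near-identical genes cannot be assigned with certainty, so their sum is the safer value: 19.0 CPM in WT and 43.9 in KO, a ratio of 1.21 (0.96 to 1.46). Rbm20, a splicing factor of heart and muscle, had 50 UMIs in WT and 5 in KO.

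Rbm4 and Rbm4b pointed in opposite directions. Rbm4b stood at 42.1 CPM in WT and 21.3 in KO, and Rbm4 at 64.7 and 77.4. They are adjacent paralogs on chromosome 19, and their summed level was 107 and 98.7 CPM, a ratio of -0.11 (-0.25 to 0.03), with an interval that includes 0. Rbm5, a regulator of exons in cell death genes, was lower at 427 and 228 CPM. Rbmx was lower as well, at 57.7 and 31.2 CPM.

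Several abundant members of the RBM group were modestly higher in KO adipocyte nuclei. Rbm25 went from 417 to 619 CPM, Rbm26 from 209 to 333, Rbms1 from 546 to 779, and Rbm39, the target of sulfonamide degraders, from 724 to 837. The cold-induced Rbm3 went the other way, from 52.0 to 37.8 CPM. Rbm25 has a predicted gene on its opposite strand, and Rbm26 shares its strand with Gm17066.

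The MBNL and CELF genes, which act against each other on many muscle exons, did not move as a pair. Mbnl1 stood at 1647 CPM in WT (26154 UMIs) against 905 CPM in KO (5024 UMIs), a ratio of -0.86 (-0.91 to -0.82). Mbnl2 stayed at 2187 and 2099 CPM, and Mbnl3 at 6.93 and 6.12. Celf1 stood at 365 and 356 CPM and Celf2 at 2691 and 2407. Mbnl1 was seen in nearly every adipocyte nucleus of both libraries, 98.7% in WT and 95.8% in KO.

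In the other 4 classes fewer members were past the fold than in adipocyte nuclei. In ASPC nuclei 1 of 95 members was higher, against 6.53% of all genes, and 2 were lower, against 11.0%. In endothelial nuclei 1 of 102 was higher, against 4.05%, and 3 were lower, against 14.9%. In immune nuclei 2 of 102 were higher, against 7.09%, and 1 was lower, against 11.1%. In mural nuclei 2 of 95 were higher, against 7.99%, and 1 was lower, against 11.5%. The median member ratio was -0.18 in ASPC nuclei and between -0.02 and 0.00 in the other 3 classes. In each class the share of members past the fold was below that of all genes.

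Celf4, a CELF gene best known from neurons and named after its values were seen, was past the fold on the higher side in all 4 of these classes. In immune nuclei its level was 17.3 CPM in WT (40 UMIs) against 67.8 CPM in KO (1327 UMIs). In endothelial nuclei its level went from 11.5 to 24.3 CPM and in mural nuclei from 5.46 to 26.1. In ASPC nuclei it had 1 UMI in WT and 81 in KO, a log2 ratio of 3.85 with an interval of 1.33 to 9.17. In adipocyte nuclei 16 and 24 UMIs were too few to be compared under the minimum. Its highest level in both libraries was in immune nuclei, and immune markers summed to 259 CPM in WT and 695 in KO ASPC nuclei, 306 and 676 in endothelial nuclei and 473 and 904 in mural nuclei. Their part in the Celf4 values was not tested.

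Rbm4b was past the fold on the lower side in all 4 of these classes, with ratios from -1.31 (endothelial) to -1.01 (mural), and stood at -0.99 in adipocyte nuclei. Summed with its paralog Rbm4, the ratio was -0.25 in ASPC and endothelial nuclei, 0.01 in immune and -0.04 in mural nuclei. Snrpf was past the fold on the lower side in ASPC (-1.77) and endothelial nuclei (-1.64) and stood at -0.68 and -0.35 in immune and mural nuclei. U2af1l4 was also lower in endothelial nuclei, with 46 and 5 UMIs. Hnrnpa0 was past the fold on the higher side in mural nuclei, with 42 and 45 UMIs and a ratio of 1.26 (0.62 to 1.90).

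Across the 92 members measured in all 5 classes, 24 had a ratio below 0 in every class, against 23.1% of the 9236 genes measured in all 5, and 17 above 0 in every class, against 24.3%. None was at least 2-fold lower in all 5 or at least 2-fold higher in all 5, against 4.37% and 0.574% of these genes. The intervals lay below 0 in all 5 classes for 11 members, against 11.2%, and above 0 for 3, against 9.55%. The members whose intervals lay below 0 in all 5 classes were Hnrnpu, Prpf6, Rbm15, Prpf38b, Hnrnpdl, Hnrnpa2b1, Rbm5, Prpf4b, Mbnl2, Rbm4b and Sf3b2, and those whose intervals lay above 0 in all 5 were Rbms1, Rbm39 and Rbm28. Hnrnpa2b1, for example, had ratios of -0.57 (immune) to -0.82 (ASPC) outside adipocytes. Rbm4b is listed by its own counts, without those of its paralog Rbm4. All 5 classes come from the same pair of libraries, so these are not separate observations of the genotype, and Cre under the Adipoq promoter is not expected to act in the other classes.

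RNA of the adipocyte markers was also counted in the other classes, and less of it in KO than in WT. The 10 adipocyte markers summed to 10645 CPM in WT and 11630 in KO adipocyte nuclei. In the other classes they summed to 4794 and 2905 CPM (endothelial), 5978 and 3641 (mural), 3017 and 1514 (ASPC) and 2300 and 1555 (immune), with no marker at 0. In KO nuclei of these classes Hnrnpa2b1 stood at 108% to 143% of its adipocyte level, Srsf1 at 118% to 151% and Sf3b2 at 82% to 101%. Rbm28, higher in KO, stood there at 30% to 45% of its KO adipocyte level, beside 13% to 31% for the adipocyte markers. The part of adipocyte RNA in the lower levels of Srsf1, Hnrnpa2b1 and Sf3b2 in these classes was not tested. Nor was its part in the higher level of Rbm28 or in the values of other members there.

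For 11 members the adipocyte interval lay wholly to one side of the intervals of all 4 other classes. It lay below for 7 of the 92 members measured in all 5 classes, against 2.87% of the 9236 genes so measured, and above for 4, against 12.2%. The 7 were Sf3b1, Mbnl1, Hnrnpd, Hnrnpa2b1, Rbm5, Hnrnph1 and Hnrnpc, and the 4 were Rbm28, Rbms3, Rbm26 and Hnrnpm. Rbms3 had a ratio of 2.28 in adipocyte nuclei and of 0.15 to 1.04 elsewhere, and Rbm28 of 1.82 against 0.34 to 0.60. Sf3b1 stood at -0.57 in adipocyte nuclei and between -0.12 and 0.08 elsewhere, and Hnrnpm at 0.59 against 0.08 to 0.18. Non-overlap of these intervals is a statement on counting error within 1 library per genotype and not a test between classes.

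**Figure D3:**
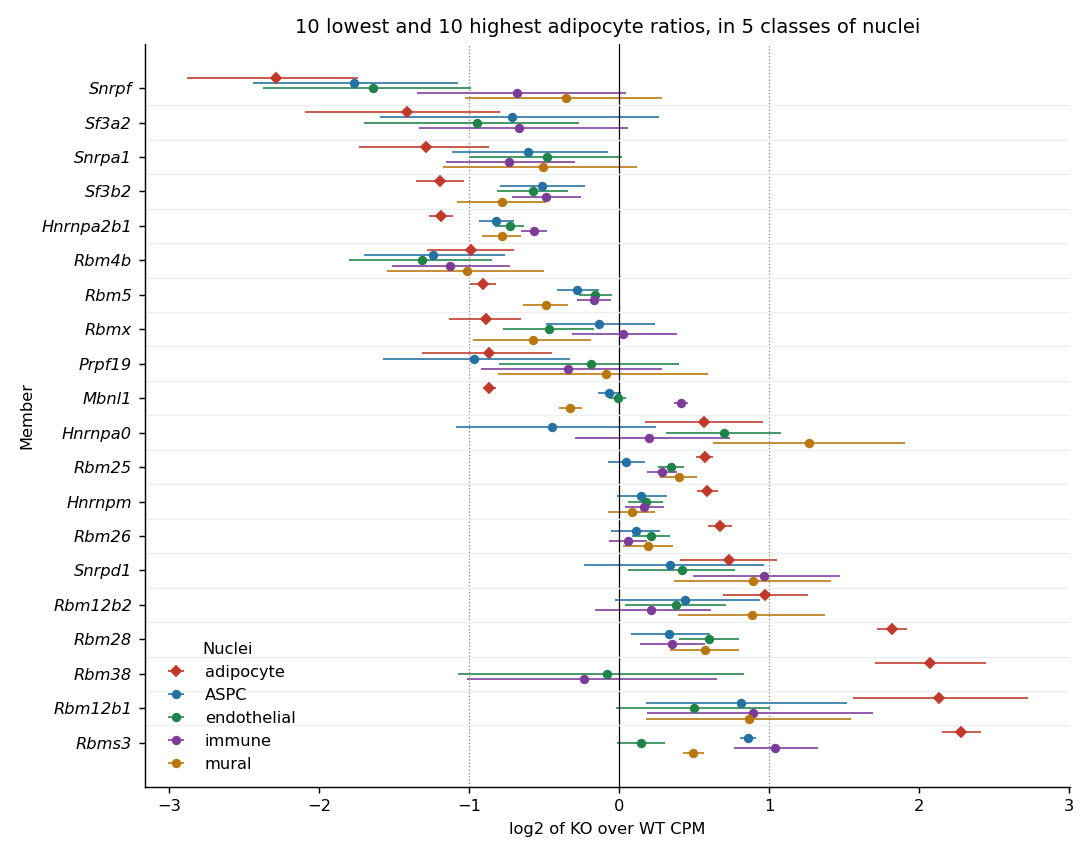
Log2 ratio of KO over WT CPM (x axis) with exact 95% counting intervals for the 10 members with the lowest and the 10 with the highest adipocyte ratios (y axis), by class of nuclei, where the class held at least 50 UMIs. The red adipocyte diamonds of Rbm28 and Rbms3 stand to the right of all other classes, and that of Mbnl1 to the left. That of Snrpd1 lies among them, and that of Rbm4b only just to their right.

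In WT nuclei few members stood far above the next class in the class where they were highest. The highest WT level was in adipocyte nuclei for 36 of 111 members, in immune nuclei for 29, in ASPC for 17, in endothelial for 15 and in mural for 14. Among members with at least 100 UMIs in the class, Celf2 stood highest above the next class, with 5736 CPM in ASPC nuclei, 2.13 times the next. Mbnl3 followed in endothelial nuclei at 23.7 CPM, 1.74 times the next class, and Rbms3 in ASPC nuclei at 1732 CPM, 1.66 times. Distance to the lowest class could be much larger: Rbms3 stood at 1046 CPM in mural nuclei but at 49.0 CPM in adipocyte and 48.4 CPM in immune nuclei, and Celf2 in endothelial nuclei at 17.2% of its ASPC level. With the same minimum, Mbnl2 was the most adipocyte-leaning at 1.41 times the next class, and Rbm47, a partner of RNA editing enzymes, the most immune-leaning at 795 CPM and 1.44 times the next. The most mural-leaning members, Sf3b3, Rbm28 and Rbm18, exceeded the next class by less than 1.13 times.

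Some of these preferences differed between the libraries. In WT, Rbm28 was highest in mural nuclei (98.8 CPM) and its adipocyte level of 91.8 CPM lay within the mural interval, whereas in KO it was highest in adipocyte nuclei. Sf3b2 was highest in WT adipocyte nuclei at 151 CPM and in KO stood at 53.9 to 66.7 CPM in every class. In KO the highest level fell in adipocyte nuclei for 24 of 111 members. Mbnl1 was highest in immune nuclei in both libraries, at 1824 CPM in WT and 2429 in KO.

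**Figure D4:**
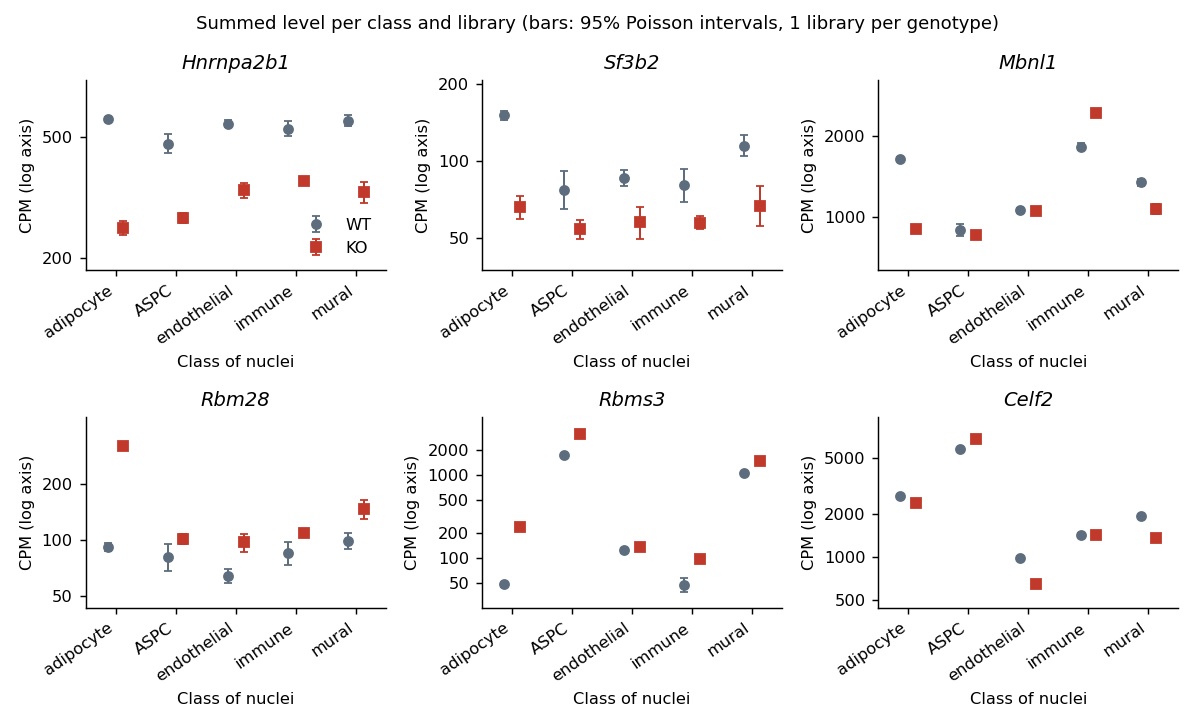
Summed CPM (y axis, log scale) of 6 members in the 5 classes of nuclei (x axis) in the WT and the KO library, with exact 95% Poisson intervals. Rbm28 separates in adipocyte nuclei (91.8 CPM in WT, 324 in KO), Hnrnpa2b1 is lower in KO in every class, and Rbms3 stays far below its ASPC level in adipocyte nuclei of both libraries.

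Rbms3 needs its value beside the ASPC markers, since ASPC nuclei are rich in it. The ASPC marker list in adipocyte nuclei stood at 1.42% of its ASPC level in WT and at 1.93% in KO, with summed levels of 96.0 and 160 CPM. Rbms3 stood at 2.83% and 7.58% of its own ASPC level, above the share of the markers in both libraries. The mural markers in adipocyte nuclei stood at 1.47% and 1.69% of their mural level, and Rbms3 at 4.69% and 16.2% of its own. In immune nuclei Rbms3 went from 48.4 to 99.4 CPM, which is 2.79% and 3.16% of its ASPC level, beside 2.48% and 3.27% for the ASPC markers there. The part of RNA from ASPC and mural cells in these values was not tested.

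The ratio was weakly related to gene length among members as among genes at large. Spearman's rho between log2 ratio and the length of the gene in adipocyte nuclei was 0.18 over 101 members and 0.27 over 12310 genes, as a description of genes that share libraries and depth. The members' rho was also below that of all genes in endothelial (0.32 and 0.33) and mural nuclei (0.082 and 0.20), and above it in ASPC (0.35 and 0.27) and immune nuclei (0.24 and 0.23).

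A list of 106 other spliceosome proteins and splicing regulators was read beside the members. In adipocyte nuclei 98 were measured. Of these, 8 (8.16%) were at least 2-fold higher, against 17.5% of all genes, and 6 (6.12%) at least 2-fold lower, against 16.9%. The median ratio was 0.05, against 0.03 for all genes. Taf15, an RNA-binding protein of the transcription machinery, had the highest ratio, with 227 CPM in WT and 2102 in KO, followed by Pcbp4 (5.23 and 28.1 CPM) and Elavl3 (2.14 and 9.01). Rbfox1, an exon regulator of neurons and muscle, had the lowest, with 372 and 51.2 CPM, followed by Snu13 (14.7 and 5.94) and Ppil1 (5.79 and 2.34). The Taf15 and Rbfox1 differences were also counted in the other classes, which held RNA of the adipocyte markers too. Taf15 had a log2 ratio of 3.21 there and of 1.30 to 1.80 in the other 4 classes. Rbfox1 had -2.86 in adipocyte nuclei and -4.33 to -2.56 in the others. In WT, Rbfox1 stood at 372 CPM in adipocyte nuclei and at 56.6 (immune) to 201 CPM (mural) elsewhere. In KO, Taf15 stood at 2102 CPM in adipocyte nuclei and at 419 (immune) to 651 CPM (mural) elsewhere. The part of adipocyte RNA in the Taf15 and Rbfox1 values of the other classes was not tested. The 106 genes together took 1.01% of WT and 1.29% of KO adipocyte UMIs, a net rise of 2756 CPM. Taf15 alone rose by 1874 CPM. Without Taf15 the shares were 0.988% and 1.08%.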

How the data were processed

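Nuclei of BAT were profiled with the 10x 3′ kit (v3.1). The deposited values are unnormalized UMI counts, a gene-by-nucleus matrix per library that the authors made with Cell Ranger (5.0.0 in the submitters' processing notes and the file headers, another version in the methods) on mm10; whether introns were counted is not given in the sources used here. UMI counts summarise a gene and do not resolve its isoforms. Nuclei with at least 200 genes, within 3 median absolute deviations of log UMIs and log genes and at most 10% mitochondrial UMIs were kept. A nucleus was called when the markers of a class (60 genes in 7 classes) gave at least 3 UMIs, a score of at least 1.2 over expectation and 2 times the next score. No doublet caller was run; 2600 WT and 2457 KO nuclei passed the score for more than 1 class. Counts were summed per class and library, scaled to CPM, and compared as log2 of KO over WT where both libraries together held at least 50 UMIs. A count of 0 was set to a floor of 3 counts. Intervals are exact (Poisson for levels, Clopper-Pearson for shares and ratios, scipy 1.17.1) at 95%. Genes named are the 10 highest and 10 lowest adipocyte ratios among members with at least 100 UMIs and 20 in each library, a fixed list of 30, the 3 most class-high members per class, members past 2-fold the same way in all 5 classes, and the 3 extremes of the other splicing list. A gene that met this rule is not reported here. The members and lists were chosen with earlier results of these data known. The ratio step was tested on simulated data. The alternatives tried were 2 filters on nuclei, 3 other class calls, the mean over nuclei, 2 other scalings, a depth window, a higher minimum and thinned nuclei. Annotation is GENCODE vM21 and promoter sequence RefSeq GRCm38.p6.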

Additional observations from a re-analysis of the deposited data

Results flagged for a closer look

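Mbnl1 was lower in KO adipocyte nuclei (log2 ratio -0.86) and higher in KO immune nuclei (0.41), with counting intervals on opposite sides of 0. Its level was 1647 CPM in WT and 905 in KO adipocyte nuclei, and 1824 and 2429 CPM in immune nuclei. Hnrnph2 was lower in KO adipocyte nuclei (-0.78) and higher in KO mural nuclei (0.57), again with intervals on opposite sides of 0. With 1 library per genotype, neither difference between classes was tested. Immune nuclei made up 29.8% of kept KO nuclei and 3.55% of kept WT nuclei, and the kinds of immune nuclei behind the Mbnl1 value were not separated.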

How the results depend on the processing

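Of 49 named members, the direction in adipocyte nuclei was kept by 46 with Leiden clusters, by 48 with the mean over nuclei and by all 49 with no filter on nuclei, with mitochondrial genes left out or with centring on the median of all genes. With a 4 times lead (176 WT and 94 KO adipocyte nuclei) 42 of 46 kept it, and the others included Rbm3 (0.18) and Rbm15 (0.076), both lower in KO as reported and higher here. Of the clusters called adipocyte, 1 held 3739 WT nuclei with 1 from KO and another held 2436 KO nuclei with 8 from WT, and together they gave a median member ratio of -0.016, that of all genes being 0.18, with 8 members higher. The cause was not tested. Across alternatives Rbms3 ranged from 2.13 to 3.27, Rbm28 from 1.79 to 1.97, Hnrnpa2b1 from -1.27 to -1.04 and Sf3a2 from -2.14 to -0.86. In the other classes the median moved to -0.17 (mural, 4 times lead), -0.040 (ASPC, clusters) and -0.066 (ASPC, mean over nuclei). The small counts past 2-fold moved as follows. ASPC, higher: 2 with no filter and with 500 to 5000 genes, 0 at the 4 times lead and at 200 UMIs, 3 with a 1.5 times lead. ASPC, lower: 0 at 200 UMIs, 3 with 500 to 5000 genes, the mean, 2000 to 10000 UMIs and the 1.5 times lead. Endothelial, higher: 0 with clusters and at 200 UMIs. Endothelial, lower: 5 with the mean, 4 with clusters, 2 at the 4 times lead, 1 at 200 UMIs. Immune, higher: 1 with 500 to 5000 genes, the 4 times lead and clusters; lower: 2 with no filter, both other leads and clusters, 3 with the mean. Mural, higher: 1 with 500 to 5000 genes, 0 at the 4 times lead, 2000 to 10000 UMIs and 200 UMIs, 3 with clusters, 4 with the 1.5 times lead. Mural, lower: 2 at the 4 times lead, 4 with the mean, 3 at 2000 to 10000 UMIs. The 1.5 times lead was chosen after seeing the data. Depth limits rare members: 10 of 111 were not compared in adipocyte nuclei.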
